A study of Macaca fascicularis with 23 samples.

Results

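A set of 68 genes was read at a lower level in naïve-like cynomolgus monkey (Cm) pluripotent stem cells (PSCs) than both before conversion and after the naïve-like state was released. The members were chosen by these expression values. Levels are log2(RPM + 1) of the deposited RPM (reads scaled to the library total), and a gene was considered when it lay above 4 in at least 1 of the 21 PSC libraries, which 2776 of the 8415 genes in the table did. Within each of 7 cell lines, the primed level and the differentiated level were subtracted from the naïve-like level. A member had a mean of at most -0.8 over the lines for both differences, and both differences were negative in at least 6 of the 7 lines. The 68 members are 2.45% of the 2776 genes. Because both differences chose the members, they are given as a description, with no test.

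Expression was measured by SC3-seq, which sequences the 3′ ends of amplified cDNA, in ESC lines CMK6, TRSK and CMK9 and in iPSC lines L3 and L6 (from liver cells) and S6 and S12 (from stomach cells), with 1 library per line and condition. Primed cells (Prime) grew in bFGF/KSR medium. Naïve-like cells (Naive-like) carried PiggyBac transgenes for hKLF2 and hNANOG, switched on by Dox, with an EOS-GFP/puroR reporter, and grew in K5cLD medium, which holds the inhibitors Gö6983, kenpaullone, CHIR99021 and SB590885 with forskolin, LIF and Dox. Differentiated cells (Dif) carried the same transgenes and were naïve-like cells moved to K5c, the same medium without LIF and Dox, so the transgene vectors, the chemicals and the loss of bFGF were shared by both K5c media and absent from the primed cells. In medium without Dox, the study still detected some hNANOG transgene expression in TRSK and S6. It also reported that iPSC lines kept some dome-shaped colonies once LIF and Dox were withdrawn. All PSCs were kept on laminin without feeder cells. The 4 iPSC lines came from 1 female foetus by episomal reprogramming vectors that included OCT3/4 and a hairpin against p53, and the study detected a remaining vector in L3, L6 and a stomach line, which its text gives as S6 and its supplement as S12. The 2 other libraries were from the cultured liver and stomach cells of that foetus. The labels mark DsRed-carrying lines for the ESCs without saying which libraries they gave.

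Primed and naïve PSCs are forms of pluripotency that resemble the epiblast after and before implantation. Primed cells grow as flat, matrix-attached epithelial colonies that depend on FGF and TGFβ family signals, whereas naïve cells grow as compact domed colonies, depend on LIF in the mouse and express few genes of lineage commitment. Secreted signals, matrix proteins and neural guidance molecules are among the gene groups that become active as the epiblast matures.

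The 21 PSC libraries held between 861000 and 7986000 reads (median 3004000), read from the RPM step of 1 read. The level of 3 reads lay between 0.376 and 3.49 RPM, and smaller values were not detectable at that depth, counting error only. The analysed genes took 24.85% to 27.53% of a library's RPM, and 5551 of the 5564 annotated ones lie on chromosomes 1 to 5, so genes elsewhere were mostly not analysed here. SOX2 and LIN28A, which mark PSCs, were above 0 in all 21 libraries, and POU5F1 had a median of 238.2 RPM in primed and 289.4 in naïve-like cells, and of 20.17 after differentiation. In the same order the medians of DPPA4 were 119.7, 156.4 and 29.29 RPM and those of L1TD1 112.9, 123 and 26.99. HESX1 had medians of 13.23, 58.15 and 0. The differentiated medians of SOX2 (471.3 RPM) and LIN28A (1086) were not below their primed medians (449 and 773.5). A pair of libraries stood apart for the members. Naïve-like CMK6 had the lowest median over the members, and primed CMK9 was lowest or low for many of them. Library numbers in the labels follow the conditions in order, and any batch of preparation cannot be told apart from them.

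Over the 68 members, the median of naïve-like minus primed was -1.51 and that of naïve-like minus differentiated was -1.57 on the log2(RPM + 1) scale, against 0.06 and 0.02 over the 2776 genes. The median of differentiated minus primed over the members was -0.03, with 33 members above and 35 below their primed level. A median near 0 follows in part from the demand on both differences. In these bulk libraries, fewer cells of a type and less RNA per cell cannot be told apart. Of the 2776 genes, 216 met the mean difference from primed and 186 that from differentiated cells, and 81 met both before the demand on the lines. The members nearest the threshold were TTC3 (-0.80 from primed), CRABP2 (-0.83) and THBS3 (-0.84). FAM78B, LOC102120093 and NID1 were nearest outside, at -0.7983, -0.7958 and -0.7907 from differentiated cells.

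**Figure D1:**
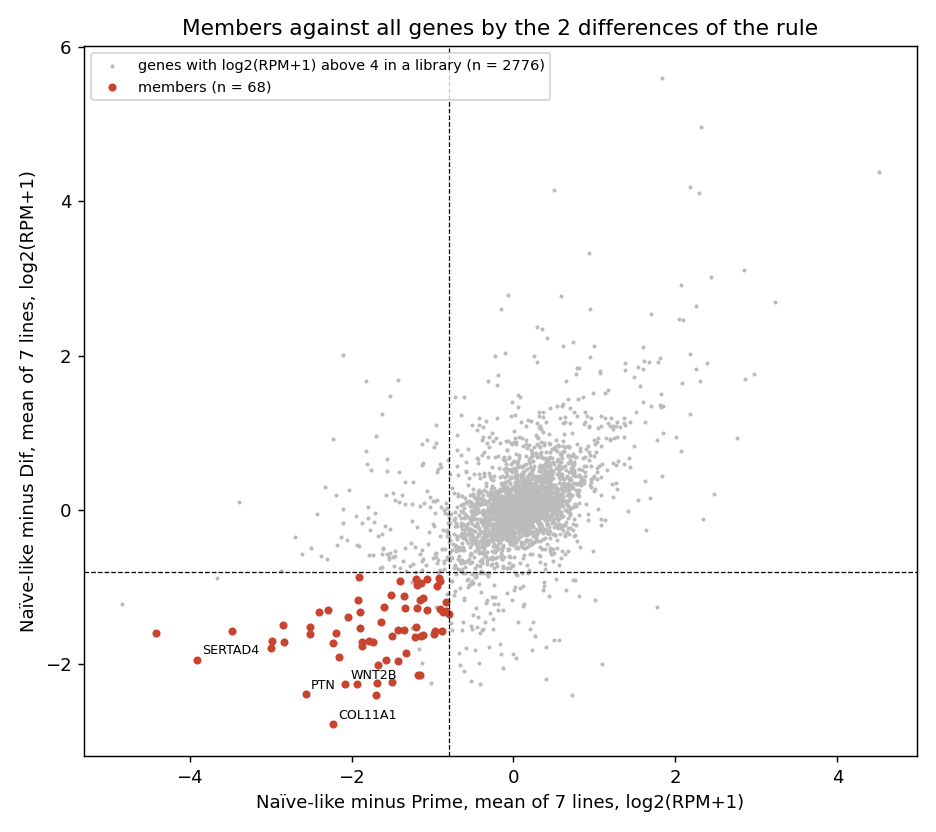
Each point is a gene, placed by its mean difference over 7 lines of naïve-like from primed cells (horizontal) and from differentiated cells (vertical), both in log2(RPM + 1). Dashed lines mark -0.8, and the 68 members (red) lie below both while most of the 2776 genes (grey) gather near 0.

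Both differences were negative in all 7 lines for 28 members, in 6 lines for 34 and in 5 lines for 6. The line that broke the pattern against primed cells was CMK9 for 21 of 35 members and TRSK for 7. Against differentiated cells there were 13 exceptions, 4 each in TRSK and S6. The sizes also varied by line. The member median of naïve-like minus primed was -2.72 in CMK6, between -2.14 and -1.51 in the 4 iPSC lines, -1.01 in TRSK and -0.28 in CMK9. The median of naïve-like minus differentiated varied less, at -2.43 in CMK6 and between -1.46 and -1.14 in the other 6 lines. In CMK6 all 68 members were below both levels, and in CMK9 47 were. The rule applied without CMK6 gave 58 genes, 54 of them among the 68, and without CMK9 it gave 79, 66 of them among the 68.

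**Figure D2:**
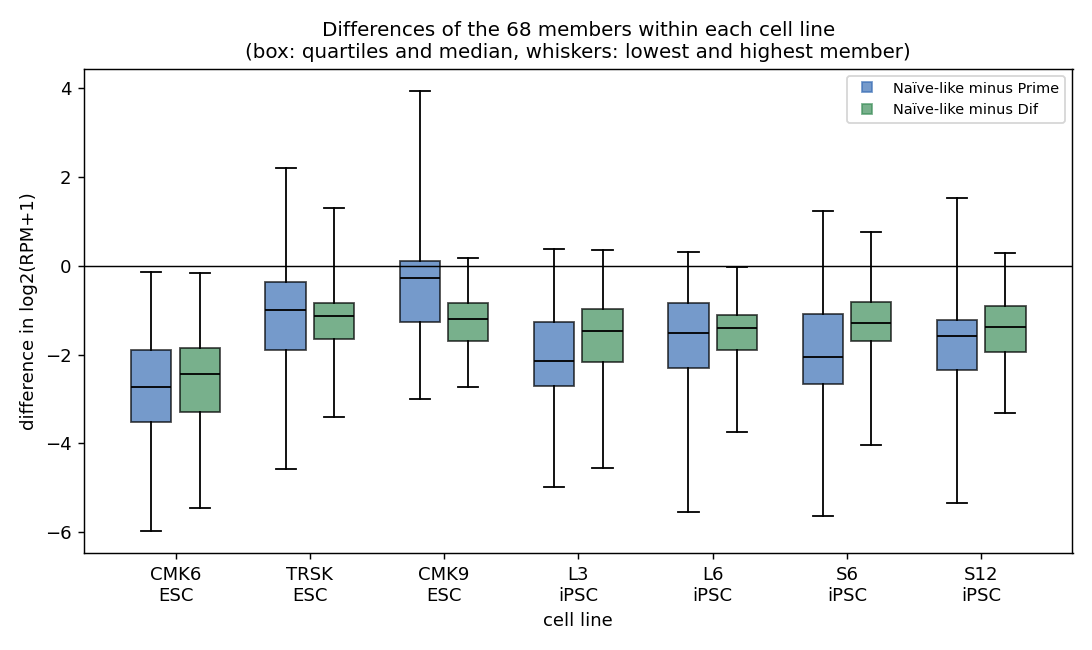
Boxes show the 68 members' differences in log2(RPM + 1) within each cell line (median and quartiles, with whiskers to the lowest and highest member), blue against primed and green against differentiated cells. CMK6 lies lowest in both, and CMK9 lies nearest 0 against primed cells with a median of -0.28.

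As the rule had used every line, the genes were also chosen on 6 lines and read in the line left out. This reading was added after the data were seen. Of the 58 genes chosen without CMK6, 93.1% were below both levels in CMK6, against 40.9% of all genes considered. The shares were 91.4% against 33.5% in S12, 85.2% against 33.6% in L6, 83.5% against 28.4% in L3 and 82.1% against 23.0% in S6. They were lower in TRSK (64.8% against 23.3%) and CMK9 (60.8% against 29.9%), the lines with most exceptions. All 7 held-out shares were above the share of all genes in the same line. The choices had most of their lines in common, so the 7 shares are not independent of one another. The iPSC lines came from the same foetus, so a held-out iPSC line was read with genes chosen partly on lines of that donor. The held-out values are therefore a description and no independent test of the set. The held-out medians of naïve-like minus primed ran from -2.74 in CMK6 to -0.21 in CMK9, and those of naïve-like minus differentiated from -2.41 in CMK6 to -1.02 in TRSK.

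Reads were few for part of the set. Of 476 pairs of member and library per condition, 78 were under 3 reads in naïve-like, 12 in differentiated and 7 in primed cells, and 35 members had at least 3 reads in every naïve-like library. Members whose naïve-like libraries all lay below all primed libraries numbered 10, and 1.66% of the 2776 genes did so. The corresponding count against differentiated cells was 9, with 1.44% of all genes. ELOVL2, ZNF436 and PHC2 were separate from both, as 0.216% of all genes were. The gap to primed cells was narrow for ELOVL2 (17.73 RPM in naïve-like L6 against 17.78 in primed CMK9). It was also narrow for ZNF436 (3.92 in naïve-like S12 against 4.13 in primed CMK9), which had 2 naïve-like libraries under 3 reads. These counts rest on the contrasts that chose the members and show only how far the libraries overlap.

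**Figure D3:**
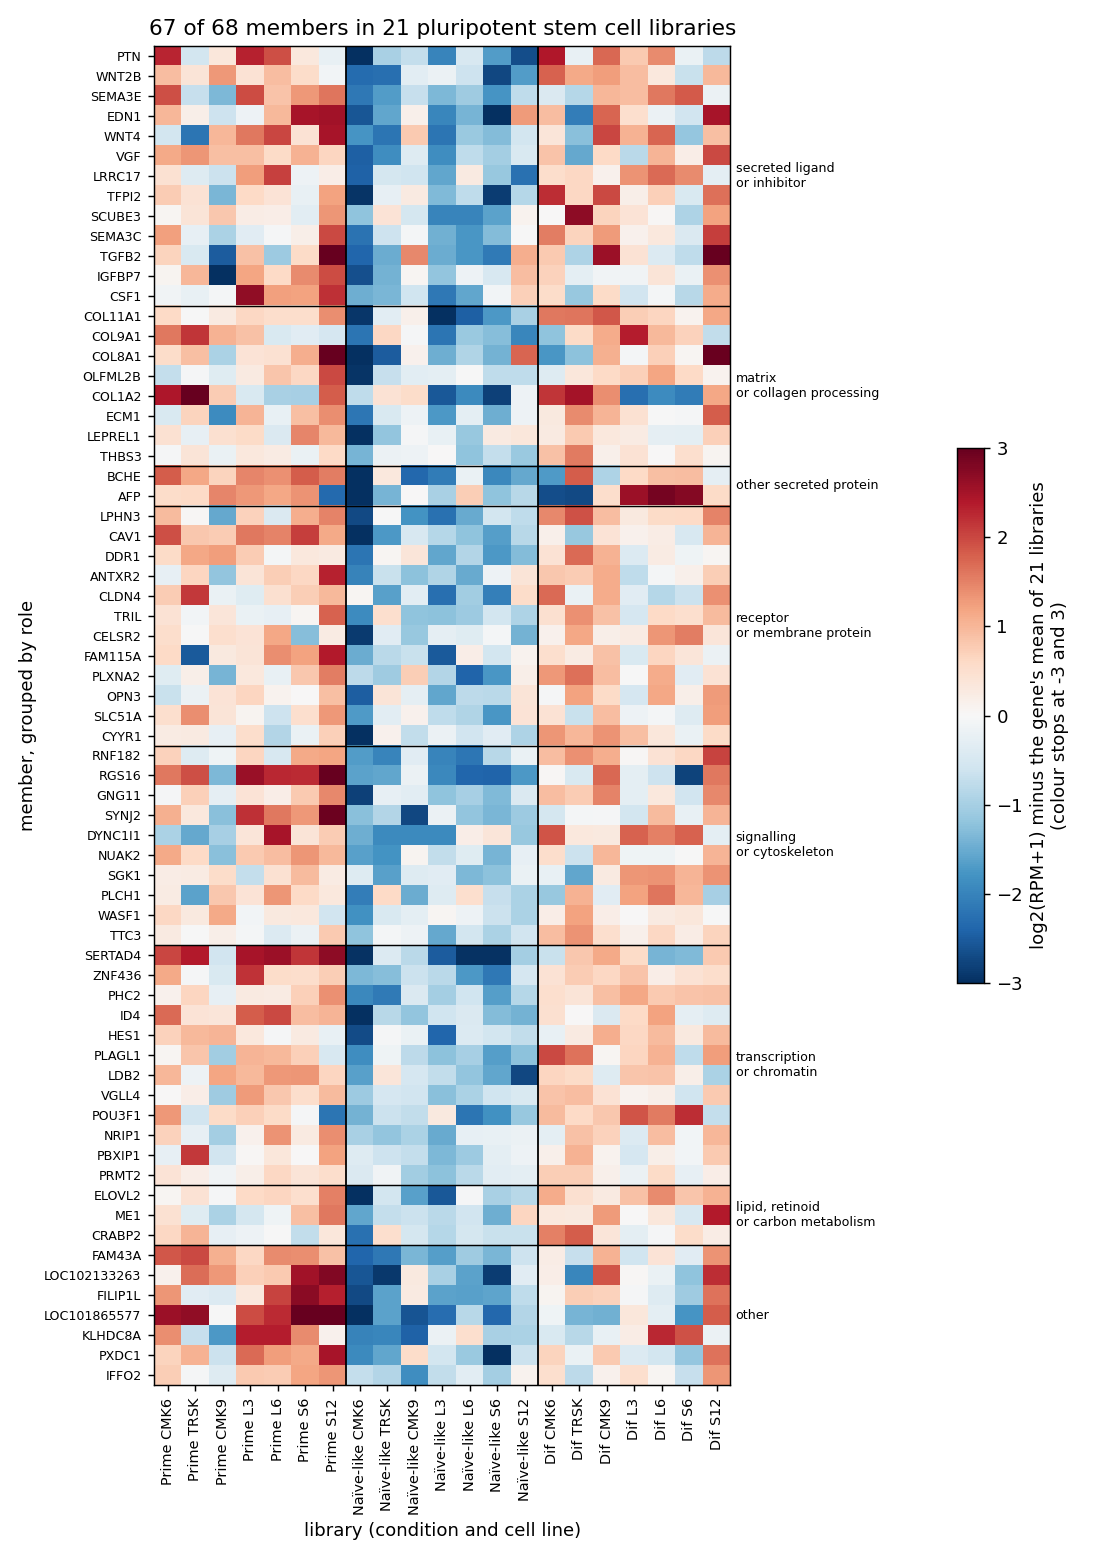
Rows are 67 of the 68 members grouped by role and columns the 21 PSC libraries by condition and line, coloured by log2(RPM + 1) minus the gene's mean over the 21 libraries (red above, blue below). The naïve-like columns are mostly blue, most deeply in CMK6, while primed CMK9 is blue for many members and SCUBE3 or TGFB2 break the pattern in single lines.

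By role, 13 members encode secreted ligands or inhibitors, 8 matrix or collagen-processing proteins, 2 other secreted proteins, 12 receptors or membrane proteins, 10 signalling or cytoskeletal proteins, 12 transcription or chromatin proteins and 3 enzymes or carriers of metabolism, and 8 were given no role. Roles were assigned after the members were known. The median differences of every role group lay between -2.40 and -0.87 from primed and between -1.75 and -1.30 from differentiated cells.

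Among the secreted ligands, PTN (pleiotrophin, a heparin-binding growth factor of the nervous system) had the largest weaker difference, which is the smaller of a member's 2 differences. PTN was at 30.6 to 225 RPM in primed cells (median 57.2), 4.50 to 32.1 in naïve-like cells (median 13.4) and 25.7 to 241 in differentiated cells (median 78.6). The differences were -2.56 ± 1.73 (SD, n = 7 lines) from primed and -2.38 ± 1.51 from differentiated cells. Every line had its lowest PTN in the naïve-like library, although naïve-like L6, at the top of its group, overlapped primed TRSK. The Wnt ligand WNT2B lay at 5.32 to 15.5 RPM in primed cells (median 8.69), 0 to 4.91 in naïve-like cells (median 1.07) and 3.18 to 21.7 in differentiated cells (median 12). No naïve-like library reached a primed one for WNT2B, and 3 of the 7 were under 3 reads. WNT4, another Wnt ligand, had medians of 8.14, 0.876 and 7.60 RPM in primed, naïve-like and differentiated cells, with ranges of 0 to 24.4, 0 to 6.91 and 0.911 to 17.3. TRSK was the exception, since WNT4 was listed at 0 there in both primed and naïve-like cells.

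SEMA3E and SEMA3C encode class 3 semaphorins, secreted cues that steer axons and vessels through plexin receptors. SEMA3E was at 0.751 to 16.2 RPM in primed cells (median 9.99), at most 1.73 in naïve-like cells (median 0.755, 6 of 7 libraries under 3 reads) and 1.46 to 14.9 in differentiated cells (median 7.44). SEMA3C, with more reads, had medians of 70.9, 28.9 and 116 RPM in the same order. For both genes CMK9 was the only line not below primed, with the primed CMK9 library the lowest of its group. EDN1, the precursor of the vasoconstrictor endothelin 1, ranged from 8.26 to 80.2 RPM in primed cells (median 26.7), 0.584 to 33.6 in naïve-like cells (median 3.79) and 2.37 to 77.2 in differentiated cells (median 19.1). S12 was the highest EDN1 library in all 3 conditions, and CMK9 and TRSK broke the pattern. The neuropeptide precursor VGF was at 12.8 to 22.0 RPM in primed and 0.692 to 6.04 in naïve-like cells, without overlap, and had a median of 12.9 in differentiated cells.

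The remaining secreted factors overlapped between conditions. TGFB2, a TGFβ family ligand, had medians of 9.55, 1.51 and 8.50 RPM in primed, naïve-like and differentiated cells, and its difference from primed was the most variable of the ligands (-1.22 ± 2.45, SD, n = 7), since primed CMK9 stood at 0.250 RPM and naïve-like CMK9 at 18.1. Of the others, IGFBP7, which binds insulin-like growth factors, was at medians of 66.7, 23.6 and 30.8 RPM. CSF1, the macrophage growth factor, was at 20.8, 2.65 and 7.99 RPM, and the protease inhibitor TFPI2 at 34.4, 13.3 and 41.6 RPM. LRRC17 and SCUBE3, both secreted proteins, had differences of -1.57 and -1.35 from primed and -1.95 and -1.55 from differentiated cells. SCUBE3 was under 3 reads in 5 of 7 naïve-like libraries.

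The matrix group was led by COL11A1, a chain of a fibrillar collagen of cartilage. COL11A1 was at 22.3 to 60.2 RPM in primed cells (median 33), 1.13 to 25 in naïve-like cells (median 6.13) and 24.4 to 84.8 in differentiated cells (median 51.4). All 7 lines had their lowest value in naïve-like cells, but by little against primed cells in CMK9 (-0.13) and TRSK (-0.31), and those libraries gave the overlap. COL1A2, the second chain of type I collagen, had medians of 75.5, 25.6 and 101 RPM, with a range of 21.7 to 579 across the primed lines. COL9A1 and COL8A1, chains of cartilage and of endothelial-type network collagens, had medians of 7.35, 0.876 and 6.37 RPM and of 20.0, 4.38 and 13.8 RPM. COL9A1 was under 3 reads in 5 naïve-like libraries. ECM1, an extracellular matrix glycoprotein, was lower in each naïve-like library than in every differentiated one (1.38 to 8.72 against 9.55 to 36.8 RPM). OLFML2B, THBS3 (a thrombospondin) and LEPREL1, a prolyl hydroxylase of collagen, had differences between -1.27 and -0.84.

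Of the other secreted proteins, BCHE (butyrylcholinesterase, an esterase of serum) lay at 20.9 to 48 RPM in primed cells (median 37.3), 0.346 to 16.3 in naïve-like cells (median 2.63) and 3.26 to 47.9 in differentiated cells (median 20.2). Naïve-like and primed libraries of BCHE did not overlap, whereas the differentiated libraries reached down into the naïve-like range. AFP, the foetal serum protein made by yolk sac and liver, was at 3.10 to 55.8 RPM in primed cells (median 45.3), 0 to 33.2 in naïve-like cells (median 9.44) and 2.19 to 150 in differentiated cells (median 29.8). The AFP libraries split by line. Differentiated L3, L6 and S6 were above every primed library, and differentiated CMK6 and TRSK were near the bottom. AFP was the 1 gene of the endoderm marker list that passed the level filter, and the other measured genes of that list were not tested.

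**Figure D4:**
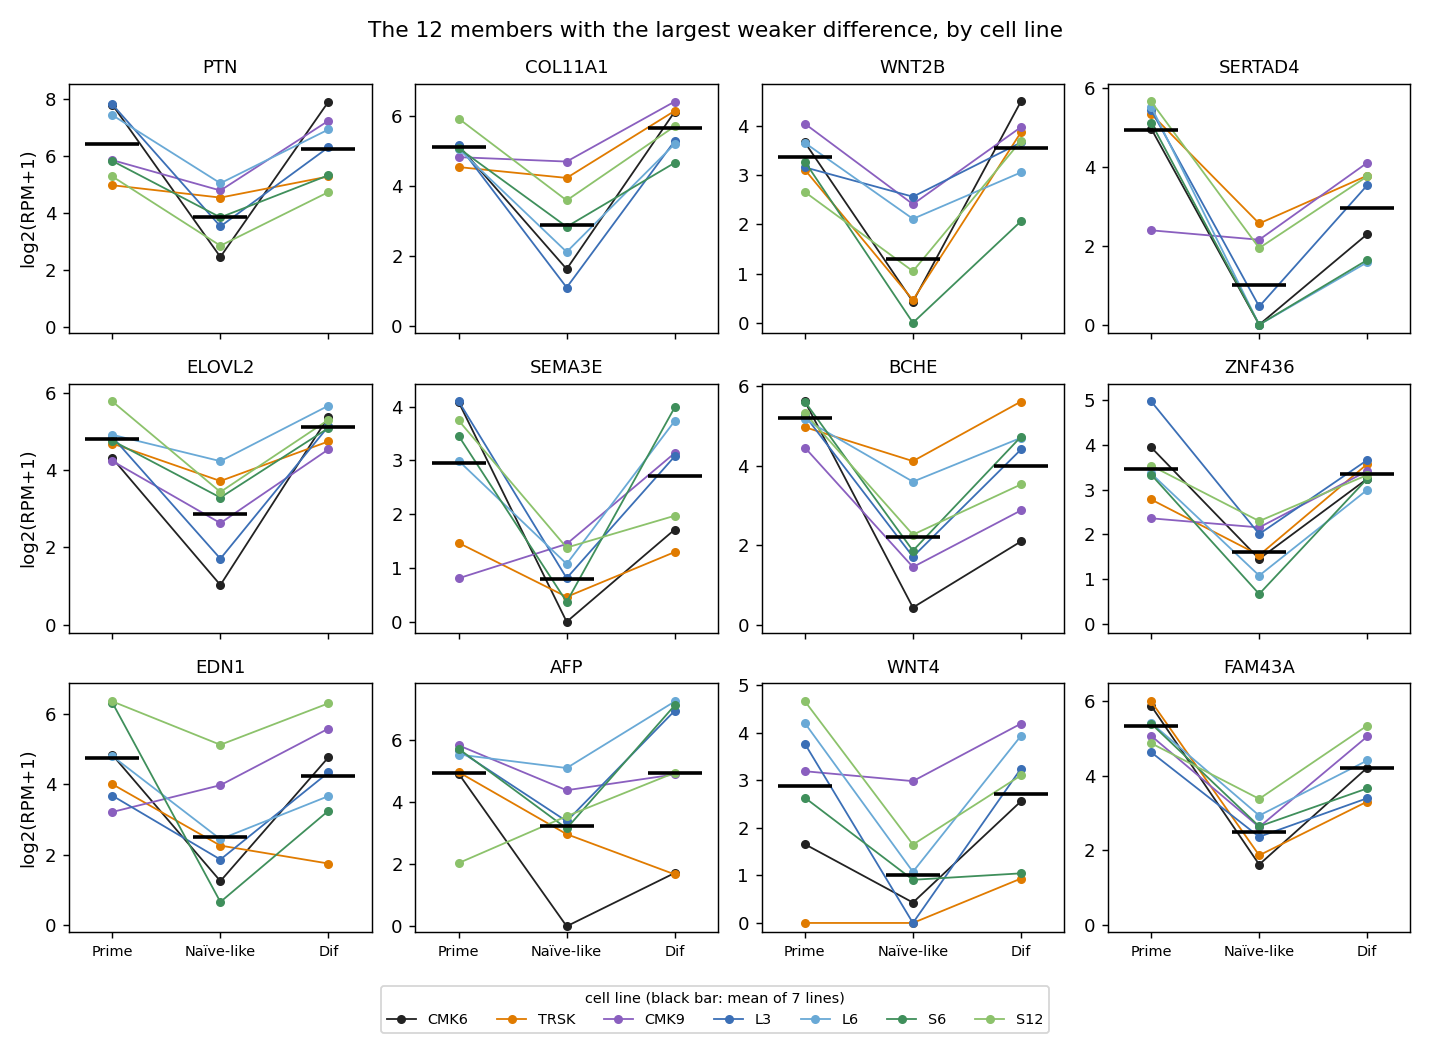
Panels show log2(RPM + 1) of the 12 members with the largest weaker difference in primed, naïve-like and differentiated cells, with a coloured point and line per cell line and a black bar for the mean of 7 lines. The V shape is present in every line for PTN, COL11A1, WNT2B, SERTAD4, ELOVL2, BCHE, ZNF436 and FAM43A, while SEMA3E in CMK9, EDN1 in CMK9 and TRSK, AFP in S12 and TRSK, and WNT4 in TRSK depart from it.

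Among the membrane proteins, LPHN3 (latrophilin 3, an adhesion receptor of synapses) had medians of 24.1, 4.43 and 28.5 RPM in primed, naïve-like and differentiated cells. Its naïve-like libraries, at 1.38 to 14.4 RPM, all lay below the differentiated ones, at 18.1 to 57.0. CAV1, the coat protein of caveolae, was at 551 to 1365 RPM in primed, 30.8 to 231 in naïve-like and 147 to 659 in differentiated cells. Primed and naïve-like libraries of CAV1 did not overlap, and with 30.8 RPM as the lowest value its levels were far above the floor of reads. DDR1, a receptor tyrosine kinase for collagen, was at medians of 59.7, 15.7 and 47.6 RPM, and CLDN4, a tight-junction claudin, at 9.99, 2.22 and 4.73 RPM. PLXNA2, a plexin receptor of semaphorins, was at 5.00, 1.89 and 9.07 RPM. CELSR2, an atypical cadherin, was at 12.1, 6.65 and 11.7 RPM. ANTXR2, TRIL, FAM115A, OPN3 (an opsin), SLC51A (a bile acid transporter subunit) and CYYR1 made up the rest, with differences from -1.35 to -0.88 against primed and from -1.57 to -0.89 against differentiated cells.

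RGS16, which speeds the switching-off of G proteins, headed the signalling members by its difference from primed (-3.48 ± 2.15, SD, n = 7), with medians of 133, 7.65 and 22.3 RPM. In differentiated S6 it was at 3.18 RPM, below its naïve-like level, and in CMK9 the primed library was the low one. The G protein subunit GNG11 had medians of 212, 78.7 and 270 RPM and was lowest in the naïve-like library of each line. RNF182, an E3 ubiquitin ligase, was at 21.5, 3.46 and 26.4 RPM, and its naïve-like libraries (2.22 to 11.6) lay below all differentiated ones (13.8 to 57.9). SYNJ2, an inositol phosphatase, was at 29.5, 4.43 and 10.7 RPM. The dynein chain DYNC1I1 was at 3.82, 0.346 and 9.65 RPM, with 3 naïve-like libraries listed at 0. NUAK2 and SGK1, both protein kinases, PLCH1 (a phospholipase C), WASF1, which promotes actin branching, and the ubiquitin ligase TTC3 had smaller differences, between -1.51 and -0.80 from primed and between -1.35 and -0.93 from differentiated cells.

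Among transcription and chromatin proteins, SERTAD4 was at 4.26 to 49.6 RPM in primed cells (median 39.7), 0 to 4.93 in naïve-like cells (median 0.378) and 2.00 to 16.2 in differentiated cells (median 10.6). SERTAD4 was listed at 0 in 3 naïve-like libraries, and its only low primed library was CMK9. The zinc-finger protein ZNF436 was at 4.13 to 30.6 RPM in primed, 0.584 to 3.92 in naïve-like and 6.99 to 11.7 in differentiated cells, without overlap on either side. PHC2, a subunit of Polycomb repressive complex 1, had enough reads in every library for its separation to stand far from the floor. It was at 58.4 to 179 RPM in primed cells (median 83.2), 15.2 to 50.9 in naïve-like cells (median 33.6) and 90.9 to 155 in differentiated cells (median 125). ID4, an inhibitor of basic helix-loop-helix factors that responds to BMP signals, had medians of 95.2, 19.9 and 47.2 RPM, and its primed libraries (60.1 to 185) lay above all naïve-like ones (2.77 to 34.4).

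HES1, a repressor and target of Notch signalling, was at medians of 15.3, 7.88 and 19.1 RPM in primed, naïve-like and differentiated cells and was lowest in the naïve-like library of all 7 lines. POU3F1 (OCT6), a POU factor of the primed epiblast and of neural progenitors, was at 5.76, 1.07 and 7.83 RPM, with 4 naïve-like libraries under 3 reads and primed S12 listed at 0. VGLL4, a TEAD cofactor that opposes YAP, was at 93.8, 42.6 and 87.7 RPM. The imprinted zinc-finger gene PLAGL1 was at 46, 11.3 and 57.9 RPM, and the LIM-domain cofactor LDB2 at 28.6, 5.54 and 21.3 RPM. NRIP1, a corepressor of nuclear receptors, PBXIP1 and the arginine methyltransferase PRMT2 had differences between -1.14 and -0.88.

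In lipid and carbon metabolism, ELOVL2, which lengthens very-long-chain polyunsaturated fatty acids, was separate on both sides. ELOVL2 was at 17.8 to 53.6 RPM in primed cells (median 26.1), 1.04 to 17.7 in naïve-like cells (median 8.76) and 22.1 to 49.6 in differentiated cells (median 34.0), with naïve-like CMK6 lowest. ME1, the cytosolic malic enzyme, had medians of 29.1, 18.9 and 39.8 RPM, and CRABP2, which carries retinoic acid, had medians of 370, 234 and 480 RPM. Of the 8 members without a role, FAM43A was at 23.8 to 62.9 RPM in primed (median 41.3), 2.08 to 9.43 in naïve-like (median 5.18) and 8.92 to 39.8 in differentiated cells (median 17.6). Primed and naïve-like FAM43A libraries did not overlap. The unnamed gene LOC101865577 had the largest difference from primed of all members (-4.41 ± 1.25, SD, n = 7), with medians of 127, 3.40 and 16.6 RPM. LOC102133263, FILIP1L, KLHDC8A, PXDC1 and IFFO2 had differences from -2.98 to -1.40 against primed and from -1.70 to -0.92 against differentiated cells.

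Differentiated minus primed was then read for each member. This is the difference of the 2 contrasts that chose the members, in the same libraries, so it is no independent test and is given as a description. The limma fit over all 2776 genes (adjusted p under 0.05) called 174 genes higher (6.27%) and 198 lower (7.13%) in differentiated cells. Of the 68 members, 0 were called higher and 5 lower (7.35%), which is near the share of all genes, and an unadjusted p under 0.05 was found for 11 members (16.2%) against 28.2% of all genes. The 5 members were LOC101865577 (-2.82, SE 0.56) and CAV1 (-1.35, SE 0.35), below primed in 7 of 7 lines, and SERTAD4 (-1.97, SE 0.55), FAM43A (-1.12, SE 0.33) and RGS16 (-1.91, SE 0.61), below in 6 of 7.

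With the cell line as a block, 305 genes were higher (11%) and 280 lower (10.1%), and 1 member was higher and 9 lower. The added members were ID4, BCHE, SYNJ2 and LOC102133263 on the lower side and TTC3 on the higher side (0.55 on the log2 scale). Leaving out CMK6, L3 or L6 left LOC101865577 and CAV1 lower, and leaving out S6, or the filter on low values, left 1 member lower. The difference was larger than its SE for 34 of the 68 members, which was not counted over all genes. It lay within 0.5 of 0 for 38 members (55.9%), against 72.9% of all genes, and a p above the threshold does not show that the levels were equal. The highest values were those of POU3F1 (0.99) and DYNC1I1 (0.96).

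**Figure D5:**
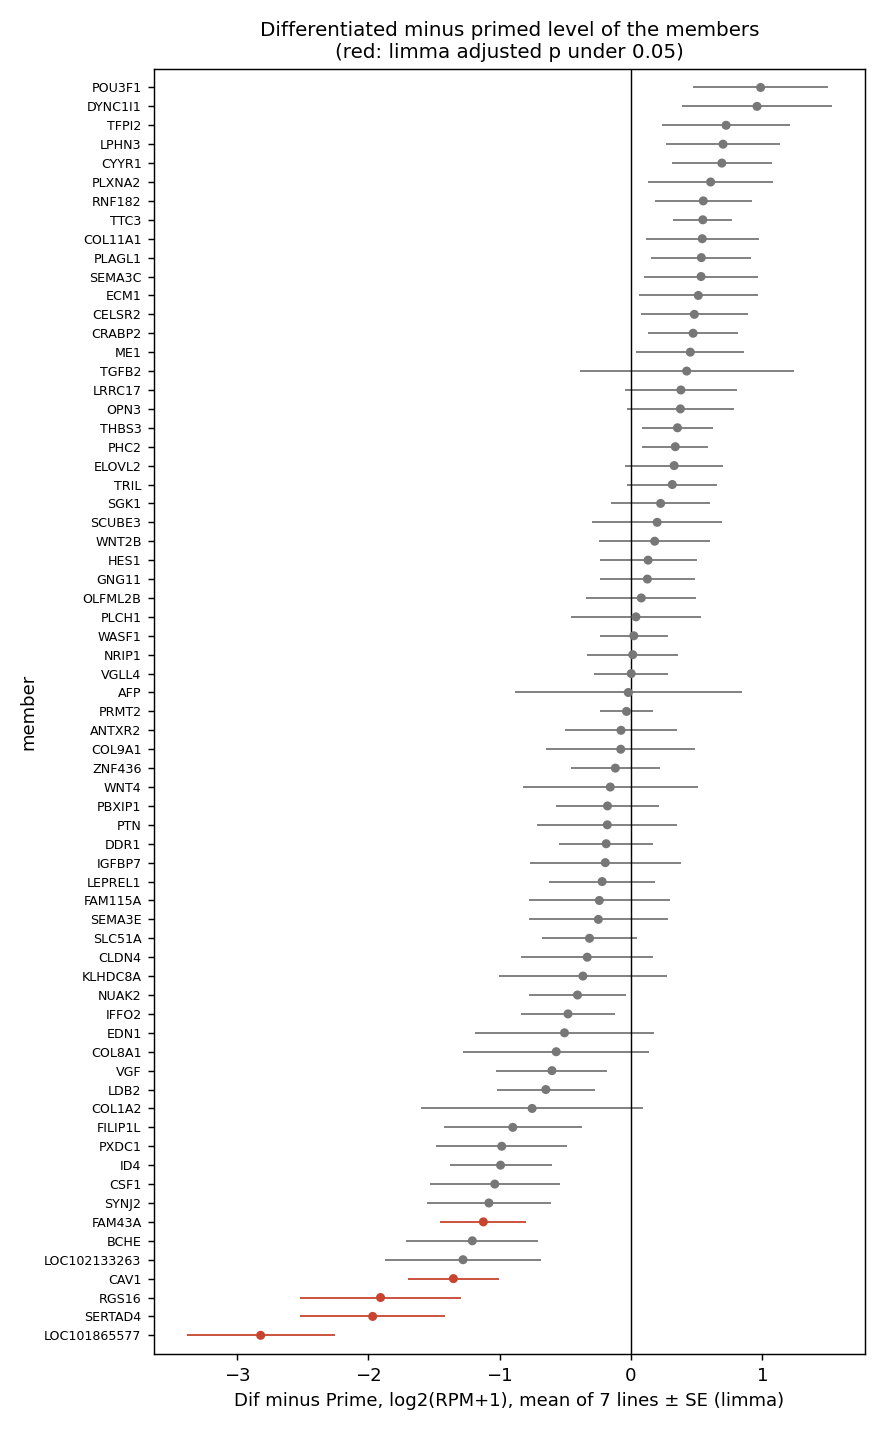
Points give differentiated minus primed in log2(RPM + 1) for 67 of the 68 members (mean of 7 lines, with bars of 1 SE from limma), sorted by value. The 5 members in red passed the limma threshold and all lie below 0, from -2.82 to -1.12, while the others spread around 0.

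ESC and iPSC lines were compared on each line's mean over the 3 conditions. Since the 4 iPSC lines share a donor, line type and donor cannot be told apart. Over all genes 19 (0.684%) were higher and 26 (0.937%) lower in ESC lines, and 0 of the 68 members passed (11, or 16.2%, had an unadjusted p under 0.05 in limma against 15.2% of all genes, 2 higher and 9 lower). The lowest adjusted p was that of COL1A2, at a log2 mean of 6.96 in ESC and 4.42 in iPSC lines (2.55, SE 0.62, adjusted p = 0.0718). KLHDC8A was at 1.44 and 3.17 (-1.74, SE 0.48, adjusted p = 0.113), without overlap of the lines, as were 5 members (7.35%) and 14.9% of all genes. S12 weighed on this comparison. Without it, limma called 78 of all genes higher and 82 lower in ESC lines. Members among them were COL1A2 (adjusted p = 0.000189) and SEMA3C (0.0213) on the higher side and KLHDC8A (0.0134) and AFP (0.0483) on the lower side. Without CMK6, 3 of all genes were higher and 9 lower, with DDR1 (0.0173) among the higher.

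The difference between differentiated and primed cells was also compared between ESC and iPSC lines, a test added after the data were seen. No gene of the 2776 (0%) passed in limma, and 21 members (30.9%) had an unadjusted p under 0.05 against 11.2% of all genes. The values come from the contrasts and libraries that chose the members, and 1 library can move many members at once. The member shares and medians given here are therefore a description and no independent test. The median over the members was 0.74 higher in ESC than in iPSC lines, against 0.09 over all genes. Primed CMK9 was low for many members. The median of differentiated minus primed over the members was 0.86 in CMK9, 0.46 in TRSK and -0.05 in CMK6, against -0.62 to -0.04 in the iPSC lines, and without CMK9 the median difference between line types was 0.55. Leaving out each other line gave 0.67 to 0.95. AFP went the other way. Its differentiated minus primed value was -2.48 in ESC and 1.82 in iPSC lines (difference -4.30, SE 0.63, adjusted p = 0.0607). For VGLL4 the values were 1.03 and -0.77 (1.80, SE 0.34, adjusted p = 0.133), for WNT4 0.95 and -0.99 (1.93, SE 0.38, adjusted p = 0.134) and for COL11A1 1.39 and -0.09 (1.49, SE 0.29, adjusted p = 0.134). None of these 4 genes passed the adjusted threshold. The lines of both types did not overlap for them, as for 12 members (17.6%) and 310 of all genes (11.2%).

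Other genes of the members' pathways were read from lists. The lists were chosen with earlier results of these data known, so their counts and medians are a description and no independent support. Members fall and rise again by the rule, so leaving them out lowers by construction how many of the others do both. Over all genes, limma called 307 (11.1%) higher and 227 (8.18%) lower in naïve-like than in primed cells, and 178 (6.41%) higher and 214 (7.71%) lower in differentiated than in naïve-like cells. The axon guidance list held 24 tested genes, 4 of them members (LPHN3, PLXNA2, SEMA3C and SEMA3E). Of the 20 others, 9 were lower in naïve-like than in primed cells, among them LRRN3 (-3.66, SE 0.55), EPHA2 (-1.62, SE 0.34) and SEMA3A (-1.59, SE 0.39), and 2 were higher, the SLIT receptors ROBO1 (1.24) and ROBO2 (1.69). In differentiated against naïve-like cells, 2 of the 20 were higher (EPHA7 at 2.01 and NRCAM at 1.81) and 2 lower. The median of the 20 was -0.78 for the first comparison and 0.50 for the second, against 0.06 and -0.02 over all genes.

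The matrix list held 17 tested genes with 4 members (COL11A1, COL1A2, COL8A1 and ECM1). Of the 13 others, 3 were lower in naïve-like than in primed cells, among them the basement membrane protein NID1 (-1.33, SE 0.38) and the protease ADAMTS4 (-1.94, SE 0.53), and ADAMTS1 was higher (1.62, SE 0.42). In differentiated against naïve-like cells, COL12A1 was higher (1.98) and the lysyl hydroxylases PLOD1 and PLOD2 were lower. With the cell line as a block, 10 genes of the matrix list were lower in naïve-like cells instead of 4, members included. Of the 11 other Wnt genes, WNT5A (-1.20) and BCL9 (-0.71) were lower and SP8 (2.18) higher in naïve-like cells, and FZD1, a Wnt receptor, was higher after differentiation (1.17). The block raised the Wnt genes that were higher in differentiated cells from 2 to 5, members included.

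Of the 4 other BMP and ID genes, ID3 was lower in naïve-like cells by -2.38 (SE 0.23), close to the -2.51 of ID4, and did not pass in differentiated against naïve-like cells (0.59, adjusted p = 0.0871), where the block made it pass (adjusted p = 0.0314) and quantile normalization added BMP5. Of the 9 other tested genes of the Hippo and YAP list, which holds targets and regulators, 4 were lower in naïve-like cells (CCN2, F3, NT5E and GADD45A). Of these 9 genes, 0 passed in either direction after differentiation. Among the 9 other neural genes, 0 were lower and 1 was higher in naïve-like than in primed cells (NPY at 3.23), with a median of 0.17. NES (0.92), POU3F2 (1.81) and ZIC1 (2.19) were higher in differentiated than in naïve-like cells and NPY was lower (-2.69). Of the 10 other Nodal and TGFβ genes, 2 were lower, LEFTY2 among them, and 1 was higher in naïve-like than in primed cells, whereas 1 was higher and 2 were lower in differentiated than in naïve-like cells, with a median of -1.09. Of the 16 other chromatin genes, 1 was lower in naïve-like cells and 2 were lower in differentiated cells. Calls were also made in the 11 lists without a member, except the list of trophoblast and amnion markers. In naïve-like against primed cells 4 of 16 actin and adhesion genes and 3 of 9 immediate early genes were lower, and in differentiated against naïve-like cells 3 of 8 FGF and ERK genes were lower. At most 3 genes in 1 direction passed in the other lists without a member, which include cell cycle (24 tested), glycolysis and p53 targets (9 each). GADD45A stands in more than 1 list. With the cell line as a block and members included, the genes lower in naïve-like cells went from 2 to 4 in the Nodal and TGFβ list, from 1 to 3 in the neural list and from 2 to 4 in the chromatin list, and at most 8 genes passed in 1 direction in a list without a member, the actin and adhesion list.

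Markers of mesenchyme were read beside the collagens. The summed RPM of the 7 measured genes of 20 was 45.3 to 601.9 in primed, 29.8 to 151.1 in naïve-like and 11.7 to 272.8 in differentiated cells. The median of COL1A2 was 75.5, 25.6 and 101 RPM in this order. The median sum without COL1A2 was 23.24, 34.45 and 11.65 RPM. By the medians COL1A2 was thus the larger part in primed and differentiated cells, but not in naïve-like cells. Without COL1A2 the sums were 18.5 to 108.5, 4.16 to 86.9 and 2.12 to 28.7 RPM, against 1651 in liver and 816.6 in stomach cells. TWIST1 had medians of 7.08, 25.4 and 6.66 RPM in primed, naïve-like and differentiated cells, S100A4 of 16.3, 2.34 and 1.28 RPM and PDGFRA of 4.12, 0.379 and 0.633 RPM. The median of TWIST1 was thus highest in naïve-like cells and those of S100A4 and PDGFRA in primed cells. Their part in the members' levels was not tested. The sums of the 15 neural genes, which include the members PTN, CRABP2 and POU3F1, were 1745 to 2773, 1472 to 2431 and 2020 to 3546 RPM. In the same order the median sums were 46.5, 10.5 and 29.8 RPM for endoderm markers, which include the member AFP. They were 65.6, 37.7 and 67.9 RPM for trophoblast and amnion markers and 48.8, 14.4 and 7.47 RPM for mesoderm and vessel markers. The part of such cells in the members' levels was not tested.

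In the single libraries of cultured somatic cells, which have no replicate, the members behaved unlike one another. In stomach cells 39 members (57.4%) were above 4 on the log2 scale, against 67.2% of all genes, and 31 (45.6%) lay above their primed mean, against 38.6%. In liver cells 25 members (36.8%) were above 4, against 64.0%, and 16 (23.5%) lay above their primed mean, against 36.2%. COL1A2 (4833 RPM in liver, 4507 in stomach), IGFBP7 (1265 and 1302), TFPI2 (339 and 971) and CAV1 (305 and 784) were the 4 members with the highest values in stomach cells. AFP was listed at 0 in both, although the cells came from foetal liver and stomach. Counts of 0 were read for 15 members in liver, PTN, VGF and CRABP2 among them, and for 5 in stomach.

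By the RefSeq annotation, all 68 members have an annotated gene and 66 are protein coding. Chromosome 1 held 22 members of 931 genes considered (2.36%), chromosome 2 9 of 533 (1.69%), chromosome 3 18 of 524 (3.44%), chromosome 4 14 of 509 (2.75%) and chromosome 5 5 of 186 (2.69%). Some members were neighbours in the order of that annotation, which is of another assembly than the one behind the deposited values. Pairs with at most 5 protein-coding genes between them were read. How many such pairs other genes would give was not counted. KLHDC8A lay next to NUAK2, and COL8A1 next to FILIP1L, with 0 protein-coding genes between. TFPI2, GNG11 and COL1A2 followed one another with 1 gene between each, as did IGFBP7 and LPHN3. SEMA3E and SEMA3C, a pair of paralogous ligands, had 5 genes between them.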

How the data were processed

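The 21 PSC libraries (7 cell lines, each primed, naïve-like and differentiated) and 2 somatic libraries were grouped by the sample labels. The authors deposited RPM, scaled by each library's mapped reads and derived with Cufflinks 2.2.0. The submitters' processing notes also name TopHat 1.4.1, cutadapt 1.3 and the build macfas5. The last line of the table is cut short and was left out. From 87.25% to 93.21% of the values above 0 were whole multiples of 1 step (tolerance 0.05), so no count test was used. Amplified cDNA without molecular identifiers bounds counting error only.

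Values were log2(RPM + 1). The members, the gene lists and the roles were chosen with earlier results of these data known. Differences were tested with limma 3.58.1 (R 4.3.3, mean-variance trend, 3 conditions in 1 fit, Benjamini-Hochberg adjustment over 2776 genes), checked on simulated data. The same cell line was used in all 3 conditions, and libraries of 1 line deviated together across conditions (mean correlation 0.269, lowest 0.0304, against -0.0446 between lines). Each line gave 1 library per condition, so spread between lines is the error. The main fit of the 3 conditions had no term for the cell line, which only the block added. Tables were made in Python 3.11.15 (numpy 2.4.6, pandas 2.3.3), figures with matplotlib 3.10.9.

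Named genes are the 20 members with the largest weaker difference, members on any of 21 lists, members passing a test and 3 genes on each side of the threshold. The remaining members are also named, except 1 that is counted but not reported here, and list genes outside the set are examples chosen after their values were seen. Alternatives were other pseudocounts, filters, thresholds, centring, quantile normalization, the block and each line left out. Symbols of 9 members came from RefSeq by gene ID.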

Additional observations from a re-analysis of the deposited data

Results flagged for a closer look

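Some values stood far from the other 6 libraries of their group, judged by the gap to the nearest library over the whole range (Dixon's test at 95%), a rule that flags about 1 in 20 groups by chance (5 of 65 groups here, 3.25 by chance). SERTAD4 in primed CMK9 was the lowest, with a gap of 0.79 of the range. AFP was far below the others in primed S12 (0.76) and in naïve-like CMK6 (0.582), where it was listed at 0. The median over the members was far lowest in naïve-like CMK6 (0.613), and the median of naïve-like minus differentiated was also far lowest in CMK6 (0.752).

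For 3 genes among the first 12, differentiated minus primed was above 0 in every line of 1 type and below 0 in every line of the other. This split in sign was not counted over all genes. Lines of both types did not overlap on this difference for 11.2% of all genes and 17.6% of the members. The ESC mean exceeded the iPSC mean by 1.36 for PTN and by 1.93 for WNT4, and lay below it for AFP (-4.3). In limma the adjusted p of this difference was 0.273 for PTN, 0.134 for WNT4 and 0.0607 for AFP, so none passed. Their cause was not tested, and line type and donor cannot be told apart.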

How the results depend on the processing

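The rule gave 68 members, 43 with a pseudocount of 5, 105 at a mean difference of -0.6 and 28 when all 7 lines were demanded. The other settings gave 46 to 87. Leaving out 1 line gave 58 (CMK6) to 94 (TRSK), and 51 members were in every such set. For differentiated minus primed, the replicate block gave 305 genes higher, with 1 member higher and 9 lower. No filter gave 111 genes higher and 1 member lower. Leaving out 1 line gave 112 to 178 genes higher and 124 to 214 lower, and 0 to 1 members higher and 1 (without S6) to 7 lower, with 2 lower without CMK6, L3 or L6. For ESC minus iPSC lines, no filter gave 8 genes lower, no mean-variance trend gave 11 higher and 13 lower, and primed and differentiated cells alone gave 5 and 7. Leaving out 1 line gave 1 to 78 genes higher and 7 to 82 lower, the highest without S12, and 0 to 2 members in each direction. Of the 5 members lower in differentiated cells, LOC101865577 passed in all 16 alternatives, CAV1 failed in 2, FAM43A and SERTAD4 in 6 each and RGS16 in 8, all with the same sign. Of 252 counts over the lists, 216 stayed within 1.5 times, and 30 of the other 36 were larger. The cause of these moves was not tested. Low reads limit the naïve-like values of 33 members.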
